A study of Canis lupus familiaris with 10 samples.

Results

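The miR-30 family is a group of microRNAs (miRNAs), short RNAs that guide silencing complexes to messenger RNAs and lower the output of the proteins they encode. Its members share a seed, the stretch near the start of the molecule that pairs with the target, and differ in the rest of their sequence, so that they can act on overlapping sets of messages. The family is abundant in epithelial and many other tissues. Known targets include BECN1, a starter of autophagy, SNAI1, a driver of epithelial-to-mesenchymal transition, and PRDM1, the factor that commits B cells to become plasma cells.

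The 5 members examined here are cfa-miR-30a, cfa-miR-30b, cfa-miR-30c, cfa-miR-30d and cfa-miR-30e, written below without the canine prefix, out of 320 miRNAs in the deposited table. They were chosen by name and not by their values, although earlier results of these data were known. All 5 were counted in each of the 10 libraries, with at least 2359 reads, and all 5 were among the 247 miRNAs that passed the filter on low counts.

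Lymph nodes stored fresh-frozen gave 10 libraries, from 6 dogs with diffuse large B-cell lymphoma (DLBCL1 to DLBCL6) and 4 healthy dogs (Healthy2 to Healthy5), with a single library per dog. The affected dogs were patients of a veterinary hospital, of both sexes and several breeds, whose peripheral nodes were taken by surgical biopsy under anesthesia, and the diagnosis rested on histology and immunostaining for B-cell markers. The healthy dogs were young purpose-bred female hound crosses from a commercial vendor, which were euthanized in surgical teaching laboratories. Breed, origin and manner of sampling therefore follow the diagnosis and cannot be told apart from it. Sex was not balanced, since males occurred only among the affected dogs, and the ages of the affected dogs are not given in the sources used here. A whole node holds tumor or normal lymphocytes together with stroma, vessels and blood.

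The total of reads counted on miRNAs ranged from 10686441 to 25784861 in DLBCL and from 30432969 to 34709421 in healthy nodes. At the fewest reads of any member, counting error alone gives a 95% interval of about ±4.04%, so that the spread between dogs is the larger error throughout. Levels are given as CPM, the reads of a miRNA per 1000000 of the library size after adjustment with edgeR's TMM factors. A read covers a whole mature miRNA, so that members can be compared without regard to length, although the ligation of adapters favors some sequences over others. Lymphoid markers (miR-142, miR-150, miR-155, miR-342, miR-181a and miR-146a) summed to 13180 to 28434 CPM in DLBCL and 22929 to 41179 CPM in healthy nodes. Their log2 fold changes were positive for 2 and negative for 4, from -2.97 for miR-150 to 0.44 for miR-155. The sum is therefore no measure of lymphoid content. Red cell markers (miR-451, miR-144, miR-486 and miR-486-3p) summed to 5740 to 48886 CPM in DLBCL and 873 to 1278 CPM in healthy nodes, and their part in the values below was not tested.

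In the canine annotation of UU_Cfam_GSD_1.0 the 5 names match 6 genes on 3 chromosomes. They lie in 3 pairs with 0 other genes listed between the genes of a pair. MIR30B lies beside MIR30D and MIR30A beside MIR30C-2, each pair within a long noncoding RNA gene. MIR30E lies beside MIR30C-1 within NFYC, which encodes a subunit of the transcription factor NF-Y. Because miR-30c has 2 genes, its reads cannot be assigned to either, and because members of the family have closely related sequences, the counting could have split reads between them.

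miR-30d was the most abundant member in DLBCL and miR-30b the least abundant in both groups. In DLBCL, miR-30d exceeded miR-30a in 6 of 6 libraries and miR-30c exceeded miR-30e in 6 of 6. The order of the other neighbours was not fixed, since miR-30a exceeded miR-30c in 4 of 6 libraries and miR-30e exceeded miR-30b in 4 of 6. In healthy nodes miR-30d and miR-30a were at the head together, with miR-30d higher in 2 of 4 libraries. They were followed by miR-30c, which lay below miR-30a and above miR-30e in 4 of 4. miR-30e exceeded miR-30b in 3 of 4, the exception being Healthy5. miR-30d ranked between 5th and 11th of all miRNAs listed in the DLBCL libraries and between 8th and 12th in the healthy ones.

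**Figure D1:**
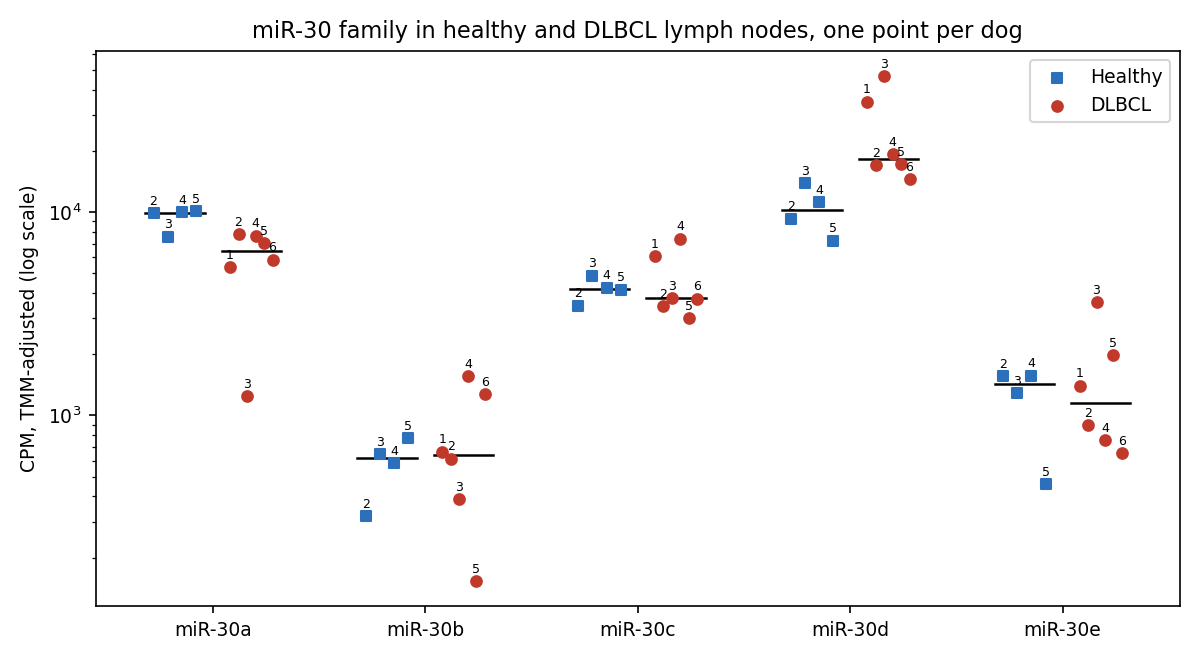
CPM of each miR-30 member (log axis) in healthy nodes (squares) and DLBCL nodes (circles), with the number of each dog above its point and the group median as a line. The 6 DLBCL values of miR-30d, from 14480 to 46706 CPM, lie above the 4 healthy values, and miR-30a in DLBCL3 lies apart at 1249 CPM.

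miR-30d, which is encoded beside miR-30b, was the only member whose groups did not overlap. It measured 34948 CPM in DLBCL1, 17014 in DLBCL2, 46706 in DLBCL3, 19218 in DLBCL4, 17148 in DLBCL5 and 14480 in DLBCL6, against 9282 CPM in Healthy2, 13871 in Healthy3, 11222 in Healthy4 and 7250 in Healthy5. DLBCL1 and DLBCL3 stood well above the other DLBCL libraries, and the distance between the lowest DLBCL and the highest healthy library was small. DLBCL averaged 24919 ± 12959 CPM (SD, n = 6) and healthy nodes 10406 ± 2822 CPM (SD, n = 4), which the edgeR fit put at 1.26 on the log2 scale (SE 0.41, 95% interval 0.37 to 2.15), or 2.39-fold. With an adjusted p of 0.101 (quasi-likelihood test of edgeR, Benjamini-Hochberg over the 247 miRNAs tested; unadjusted 0.00938), miR-30d did not pass the threshold for a differentially expressed miRNA (DEM), an adjusted p under 0.05 and a fold change over 2.

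By edgeR 0 of the 5 members were DEMs, beside 5.67% of all miRNAs tested (3.64% higher and 2.02% lower in DLBCL). An unadjusted p under 0.05 was reached by 1 of 5, miR-30d, beside 26.7% of all miRNAs tested (17.4% with DLBCL higher). Groups that did not overlap in CPM were found for 1 of 5 members, with DLBCL above, and for 13.0% of all miRNAs tested (6.88% with DLBCL above and 6.07% with DLBCL below). The log2 fold changes of the members were positive for 4 and negative for 1, with a median of 0.35, where the median over all miRNAs tested was 0.13.

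The call for miR-30d depended on the scale. With no TMM factors, only division by each library's miRNA total, its log2 fold change was 1.88 (adjusted p = 0.00903, edgeR) and it was a DEM, as it was with limma on the deposited TPM values (1.86, adjusted p = 0.00672). Of all miRNAs tested, 9.31% were DEMs on the former scale and 8.50% on the latter. With DESeq2 (17.2% DEMs) and limma voom (18.6% DEMs) none of the 5 members was a DEM. Over all 21 alternatives the adjusted p of miR-30d ranged from 0.00672 to 0.510. With total miRNA reads and with limma on TPM, the median over all 247 miRNAs was itself higher, at 0.82 and 0.55. Relative to that median, miR-30d stood at 1.06 and 1.31 on these scales and at 1.13 with TMM. On the TPM scale its groups overlapped, with 11974 TPM in DLBCL5 and 12279 TPM in Healthy3.

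miR-30a, a member for which repression of BECN1 is well described, was the only one with a negative log2 fold change. Its level in DLBCL was 5348 CPM in DLBCL1, 7786 in DLBCL2, 1249 in DLBCL3, 7657 in DLBCL4, 7060 in DLBCL5 and 5838 in DLBCL6. In healthy nodes it was 9911 CPM in Healthy2, 7570 in Healthy3, 9980 in Healthy4 and 10125 in Healthy5. The groups overlapped only because Healthy3 lay below DLBCL2 and DLBCL4. DLBCL averaged 5823 ± 2445 CPM (SD, n = 6) and healthy nodes 9396 ± 1221 CPM (SD, n = 4). By edgeR the log2 difference was -0.69 (SE 0.43, 95% interval -1.62 to 0.24), with an adjusted p of 0.290. Scaled to total miRNA reads, the sign turned (0.14), and limma on TPM gave -0.19.

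DLBCL3 stood apart from the other DLBCL libraries in miR-30a, and without it the log2 fold change was -0.45. In the same library, the stroma and vessel markers miR-145, miR-126, miR-199, miR-214 and miR-218 had their lowest value of the 10 libraries. The others on the list used here, miR-143 and miR-10b, did not. Such low values were not confined to that list. The myeloid marker miR-223 (3.95 CPM) and miR-125b (41.4 CPM) were also lowest in DLBCL3. So were the lymphoid markers miR-146a (1695 CPM) and miR-181a (210 CPM), but not miR-142, miR-150, miR-155 and miR-342. How many of all miRNAs tested were lowest there was not counted. miR-199, a fibroblast-enriched miRNA, measured 239 CPM in DLBCL3 and 988 to 4053 CPM elsewhere, and miR-126, which marks endothelium, measured 8.85 CPM and 31.9 to 399 CPM elsewhere. miR-10b, also on that list, was highest in DLBCL3 (60142 CPM), and the summed level of the list, which miR-143 and miR-10b dominate, ranged from 29051 to 89547 CPM in DLBCL and from 39828 to 79433 CPM in healthy nodes. The part of these markers in the level of miR-30a was not tested, and a loss of cells of some type cannot be told apart from less miRNA per cell.

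miR-30c, made from 2 genes, was the member with the log2 fold change nearest to 0 under TMM. Its lowest DLBCL value was 3003 CPM (DLBCL5), its median 3766 CPM and its highest 7411 CPM (DLBCL4). Healthy2 held 3463 CPM, Healthy3 4864, Healthy4 4253 and Healthy5 4150. The healthy range lay within the DLBCL range. By edgeR the log2 difference was 0.13 (SE 0.34, 95% interval -0.61 to 0.87), with an adjusted p of 0.840. Under TMM this interval leaves out a change over 2-fold in either direction, but the value was 0.91 with total miRNA reads and 0.76 with limma on TPM, where the median over all miRNAs was also higher. Among dogs with DLBCL, the SD of its log2 CPM was 0.51, and 9.31% of the miRNAs tested had a smaller one (median over all miRNAs, 1.07).

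miR-30b varied widely among the affected dogs. It measured 664 CPM in DLBCL1, 613 in DLBCL2, 388 in DLBCL3, 1558 in DLBCL4, 154 in DLBCL5 and 1277 in DLBCL6, a 10.1-fold range. It measured 320 CPM in Healthy2, 647 in Healthy3, 584 in Healthy4 and 776 in Healthy5. DLBCL4 and DLBCL6 lay above all healthy libraries and DLBCL5 below all of them. DLBCL averaged 776 ± 536 CPM (SD, n = 6) and healthy nodes 582 ± 192 CPM (SD, n = 4). By edgeR the log2 difference was 0.41 (SE 0.57, 95% interval -0.82 to 1.65), with an adjusted p of 0.685. It was 1.32 with total miRNA reads and 0.83 with limma on TPM, and miR-30b was a DEM on neither scale.

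miR-30e, hosted by NFYC, measured 1403 CPM in DLBCL1, 898 in DLBCL2, 3612 in DLBCL3, 756 in DLBCL4, 1975 in DLBCL5 and 652 in DLBCL6. The healthy libraries held 1561 CPM in Healthy2, 1285 in Healthy3, 1569 in Healthy4 and 460 in Healthy5, so that the lowest value of all came from a healthy node. DLBCL averaged 1549 ± 1124 CPM (SD, n = 6) and healthy nodes 1219 ± 523 CPM (SD, n = 4). The edgeR log2 difference of 0.35 (SE 0.54, 95% interval -0.83 to 1.53), with an adjusted p of 0.719, became -0.06 without DLBCL3, its highest library. It was 0.94 with total miRNA reads and 0.93 with limma on TPM, and miR-30e was a DEM on neither scale.

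Sequencing quality also differed among the DLBCL libraries. The libraries DLBCL1, DLBCL2, DLBCL3 and DLBCL5 had a higher percentage of bases at Q30, a base quality threshold, than DLBCL4, DLBCL6 and the 4 healthy libraries. Within DLBCL, miR-30b lay between 154 and 664 CPM in the 4 libraries of higher Q30 and between 1277 and 1558 CPM in the 2 of lower Q30. miR-30e went the other way, with 898 to 3612 CPM and 652 to 756 CPM. The ranges of miR-30a, miR-30c and miR-30d overlapped between these sets. Only 15 such splits of 6 libraries exist, and the share of all miRNAs tested that separate in this way was not computed. The comparison within the lower Q30 group, DLBCL4 and DLBCL6 against the 4 healthy libraries, gave log2 fold changes of -0.49 for miR-30a, 1.27 for miR-30b, 0.40 for miR-30c, 0.68 for miR-30d and -0.80 for miR-30e (edgeR). Only miR-30b was a DEM there (adjusted p = 0.0484), beside 17.8% of all miRNAs tested in that group. miR-30d still had DLBCL values above all healthy ones, but with a smaller difference, and miR-30e changed sign. With the quality group as a covariate in the edgeR fit of all 10 libraries, the values were -0.48 for miR-30a, 1.28 for miR-30b, 0.42 for miR-30c, 0.70 for miR-30d and -0.79 for miR-30e, with adjusted p from 0.270 to 0.736. The healthy libraries all belong to the lower group, so that the covariate rests on the 6 DLBCL libraries.

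**Figure D2:**
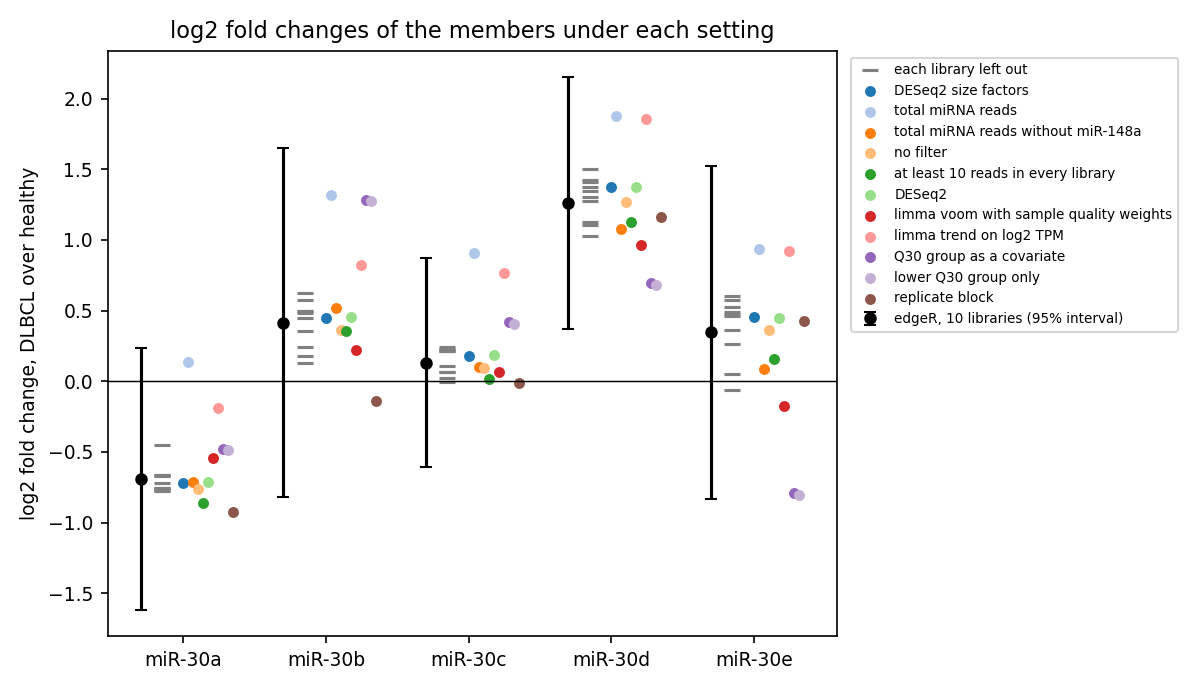
log2 fold change of each member, DLBCL over healthy, with the 95% interval of the edgeR fit of 10 libraries (black), the 10 fits without a library (dashes) and the other settings (colors). miR-30d lies above 0 under each setting shown, from 0.68 to 1.88, whereas miR-30e falls on both sides of 0.

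The make-up of the family differed between the groups in its abundant members. miR-30d took 52.5% to 83.8% of the reads of the 5 members in DLBCL (median 57.8%) and 31.9% to 49.1% in healthy nodes (median 39.2%), and the groups did not overlap. miR-30a took 2.24% to 26.2% in DLBCL (median 21.7%) and 26.8% to 44.5% in healthy nodes (median 38.3%), again without overlap, although DLBCL2 and Healthy3 were close. The shares of the other members overlapped. miR-30c made up 12.6% ± 4.53 (SD, n = 6) of the family's reads in DLBCL, against 16.2% ± 1.84 (SD, n = 4) in healthy nodes, miR-30e 3.95% ± 2.09 and 4.65% ± 1.91, and miR-30b 2.30% ± 1.86 and 2.28% ± 0.867. Shares within a library do not depend on the scaling between libraries, but they sum to a whole, so that a rise in the share of a member lowers the others. They are given as a description without a test. Within the lower Q30 group the difference in share, DLBCL minus healthy, was smaller in size for the abundant members. It was 14.2 points for miR-30d (23.4 over all libraries) and -15.3 points for miR-30a (-19.1 over all libraries). For miR-30c it was 1.10 points (-3.60 over all libraries), so that the direction turned. For miR-30b it was 2.30 points (0.023 over all libraries) and for miR-30e -2.37 points (-0.70 over all libraries).

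**Figure D3:**
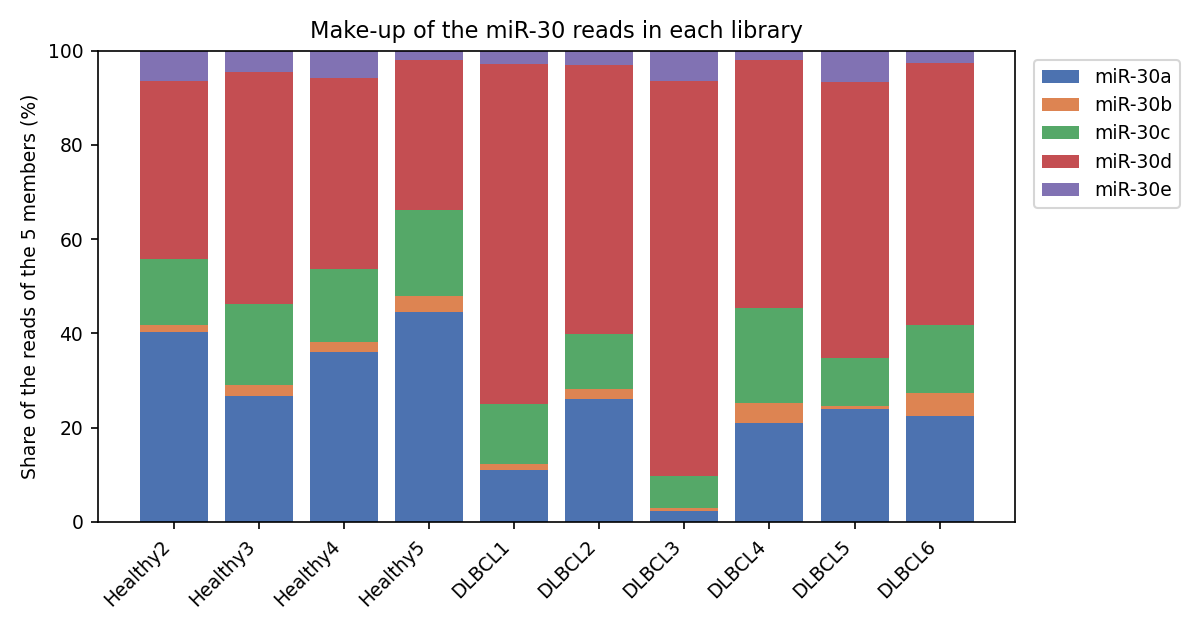
Percentage of the reads of the 5 miR-30 members that each member took in each library. miR-30d takes over 50% in each DLBCL library, up to 83.8% in DLBCL3, and under 50% in each healthy library, where miR-30a takes 26.8% to 44.5%.

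All 5 members together held 4.65% ± 1.48 (SD, n = 6) of a DLBCL library's miRNA reads, against 2.0% ± 0.625 (SD, n = 4) of a healthy library's. The lowest DLBCL library, DLBCL5 with 2.05%, lay within the healthy range of 1.24% to 2.53%. The share also depends on the most abundant miRNA, miR-148a, which took 17.8% to 39.0% of the miRNA reads in DLBCL and 51.5% to 73.6% in healthy nodes. With miR-148a left out of the total, the family made up 6.72% ± 1.94 (SD, n = 6) and 5.06% ± 0.460 (SD, n = 4), and its summed CPM ranged from 26000 to 55733 in DLBCL and from 22761 to 28237 in healthy nodes.

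Ratios between members within a library were compared for the 10 pairs. The ratio of miR-30d to miR-30a was the only one whose groups did not overlap (1 of 10). It was 6.54 in DLBCL1, 2.19 in DLBCL2, 37.4 in DLBCL3, 2.51 in DLBCL4, 2.43 in DLBCL5 and 2.48 in DLBCL6, and it was 0.937 in Healthy2, 1.83 in Healthy3, 1.12 in Healthy4 and 0.716 in Healthy5. In 4 of the 6 DLBCL libraries it thus lay between 2.19 and 2.51, and DLBCL1 and DLBCL3 were higher. This pair was singled out after its values were seen and has no test. It joins the member with the highest log2 fold change and the only member with a negative one, so that the ratio restates their levels. The share of pairs without overlap among all miRNAs tested was not computed.

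The neighbours miR-30d and miR-30b, each with a single gene, were compared with a test. The ratio of miR-30d to miR-30b ranged from 11.3 in DLBCL6 to 120.2 in DLBCL3 in DLBCL (median 38.2) and from 9.34 in Healthy5 to 29.0 in Healthy2 in healthy nodes (median 20.3). DLBCL2, DLBCL4 and DLBCL6 lay within the healthy range and DLBCL1, DLBCL3 and DLBCL5 above it. The log2 ratio averaged 5.23 over the 6 DLBCL libraries (SD 1.5) and 4.19 over the 4 healthy ones (SD 0.69). The difference of 1.03 did not exceed the spread between dogs (exact permutation test of the 10 libraries, two-sided, p = 0.238). Within the lower Q30 group the difference was -0.63 (exact permutation test, p = 0.4, in a design that cannot go below 0.133). Although their genes are neighbours, the pair did not keep a fixed ratio across libraries. Within DLBCL the ratio was 11.3 in DLBCL6 and 12.3 in DLBCL4, the libraries of lower Q30. It ranged from 27.8 in DLBCL2 to 120.2 in DLBCL3 in those of higher Q30. Differences between these dogs and between the quality groups cannot be told apart.

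**Figure D4:**
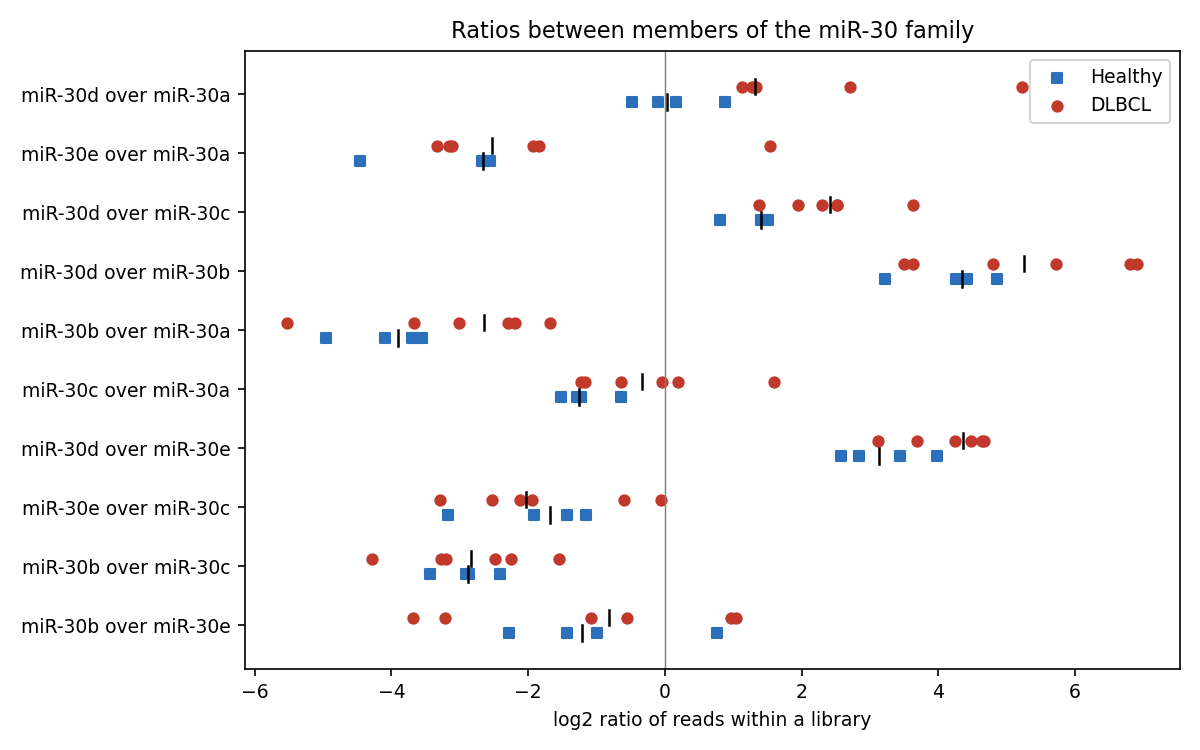
log2 ratio of the reads of 2 members within a library for the 10 pairs, in healthy nodes (squares) and DLBCL nodes (circles), with the group median as a line. Only miR-30d over miR-30a separates the groups, with DLBCL values from 1.13 to 5.22 and healthy values from -0.48 to 0.87.

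The likeness of other miRNAs to each member was measured as the SD, over the 10 libraries, of the log2 ratio of their CPM to that of the member, so that a small SD means a near-constant ratio. The members were not the closest to each other. For miR-30d, the nearest of the 246 other miRNAs tested were miR-92a (SD 0.33), miR-423a (0.37) and miR-328 (0.45), beside a median SD of 1.36. Its neighbour miR-30b was in place 114 (1.30). The best placed relative of miR-30d was miR-30e, in place 37 (0.76). miR-92a itself had a log2 fold change of 1.81 (adjusted p = 0.0565, edgeR) and miR-423a of 1.17 (adjusted p = 0.118, edgeR).

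For miR-30c the nearest were miR-26b (SD 0.26), miR-98 of the let-7 family (0.28) and miR-221 (0.33), with a median of 1.13. For miR-30a they were miR-181d (0.35), miR-8859a (0.39) and miR-365 (0.41), with a median of 1.25, and miR-30d was in place 176 (1.63). For miR-30e they were miR-1301 (0.37), let-7f (0.40) and miR-7180 (0.45), and for miR-30b they were miR-339 (0.43), miR-340 (0.57) and miR-190a (0.57), with medians of 1.40 and 1.42. miR-30c was the relative nearest to miR-30b, in place 18 (0.75). The libraries differ in depth and composition, and the SDs are a description.

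PRDM1, a target of the family, is also known as a target of let-7 and miR-98, miR-9, miR-125b and miR-127. Of the 14 names on this list, 11 were in the table and all 11 were tested. No member of it was a DEM (0 of 11, beside 5.67% of all miRNAs tested), 5 had a positive and 6 a negative log2 fold change, and the median was -0.12. The 7 let-7 members and miR-98 had log2 fold changes between -0.35 and 0.32. For miR-9, DLBCL averaged 550.0 ± 705 CPM (SD, n = 6), from 13 to 1854 CPM, and healthy nodes 78.5 ± 17.8 CPM (SD, n = 4). The log2 difference by edgeR was 2.81 (SE 1.10), with an adjusted p of 0.121. For miR-125b, healthy nodes averaged 1057 ± 341 CPM (SD, n = 4) and DLBCL 395 ± 193 CPM (SD, n = 6). Its log2 difference was -1.42 (SE 0.55, adjusted p = 0.118 from edgeR), and that of miR-127 was -1.48 (SE 0.78, adjusted p = 0.232 from edgeR).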

How the data were processed

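Small RNA from 10 lymph nodes was sequenced. Per the labels and the study's methods, the authors cleaned the reads, mapped them with Bowtie 0.12.9 (build CanFam3.1 in the submitters' processing notes), discarded reads of repeats and of known noncoding RNAs, and assigned reads to miRBase entries with miRDeep2. Whether mismatches between related miRNAs were allowed is not given in the sources used here. They deposited read counts without normalization, and TPM values, which differ from counts scaled to the listed total by at most 4.55e-05. Groups were taken from sample titles, and the Q30 groups from the study's sequencing statistics. The counts were analysed with edgeR 4.0.16 in R 4.3.3 (TMM, default filter by group, quasi-likelihood test, Benjamini-Hochberg adjustment over 247 miRNAs, prior count of 2 for log2 CPM), and standard errors and intervals were derived from its F statistic. Alternatives used DESeq2 1.42.0, limma 3.58.1 and other scalings, filters and sets of libraries. Python 3.11.15 with scipy 1.17.1 gave the exact permutation test. The fit was tested on simulated counts. Gene neighbours came from the RefSeq table of UU_Cfam_GSD_1.0. miRNA sequences were not used here. The members, lists and tests were chosen with earlier results of these data known. The miRNAs named are the members, the 3 most like each member, and the lists. No pair of libraries of a group was near-identical (chi-squared per degree of freedom at least 2115). The p-values set a difference between groups against the spread between libraries. With a single library per dog, the spread between dogs includes that of preparation and sequencing.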

Additional observations from a re-analysis of the deposited data

Results flagged for a closer look

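In 24 groups of values examined (the CPM and the family share of each member, the family's share of miRNA reads and the log2 ratio of miR-30d to miR-30b, in each condition), 2 held a library far from the others, where chance flags about 1 in 20. miR-30a in DLBCL3 lay at 1249 CPM, and its gap to the next library was 0.627 of the range of the 6 DLBCL libraries (critical value 0.625). miR-30a in Healthy3 lay at 7570 CPM, with a gap of 0.917 of the range of the 4 healthy libraries (critical value 0.829), which is narrow.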

How the results depend on the processing

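miR-30d had a positive log2 fold change under all 21 alternatives. It became a DEM with total miRNA reads (1.88) and with limma on log2 TPM (1.86), and ranged from 1.03 to 1.5 with each library left out. DESeq2 gave it 1.38 (adjusted p = 0.0533), and limma voom with sample quality weights 0.96 (adjusted p = 0.0325), under the 2-fold threshold. miR-30b became a DEM within the lower Q30 group (1.27), and its sign turned with the replicate number as a block (-0.14). The sign also turned for miR-30a with total miRNA reads (0.14), for miR-30c with the replicate block (-0.013), for miR-30e with limma voom (-0.18), the Q30 covariate (-0.79) and the lower Q30 group (-0.80), and for the log2 ratio of miR-30d to miR-30b within the lower Q30 group (-0.63). The cause was not tested. With each library left out, miR-30a ranged from -0.78 to -0.45, miR-30b from 0.13 to 0.63, miR-30c from -0.0046 to 0.24 and miR-30e from -0.063 to 0.60. The signs that turned were those of miR-30c without DLBCL4 (-0.0046) and of miR-30e without DLBCL3 (-0.063).

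The count of all DEMs, 14, was 8 with DESeq2's size factors, 23 with total miRNA reads, 45 with DESeq2, 46 with limma voom, 7 with the Q30 covariate, 46 in the lower Q30 group and 1 with the replicate block, and 1 to 23 with a library left out, the lowest without Healthy4 and the highest without DLBCL4. Of these calls 9 were higher and 5 lower, against 22 higher and 1 lower with total miRNA reads. Libraries of both conditions share the numbers 2 to 5, but the correlations of their deviations were 0.26, -0.0092, -0.30 and -0.33, so that the numbers do not pair the dogs. With the block, the ratio of miR-30d to miR-30b differed by 1.34 on the log2 scale over 4 pairs (exact sign-flip permutation test, p = 0.5, smallest possible 0.125).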

Other observations

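When likeness was measured over the 6 DLBCL libraries alone, the nearest miRNA to miR-30e was miR-25. The SD of their log2 ratio was 0.17, beside a median of 1.48 over the 246 other miRNAs tested. The nearest to miR-30b were miR-31 and miR-339, with the same SD at this precision (0.39, median 1.56). miR-339, also the nearest over all 10 libraries, had a log2 fold change of -0.23 (adjusted p = 0.825, edgeR). miR-31 was a DEM whose mean rose from 23.2 CPM in healthy nodes to 290.2 CPM in DLBCL (log2 fold change 3.64, adjusted p = 0.0140 from edgeR), while miR-30b had a log2 fold change of 0.41. miR-92a remained nearest to miR-30d (0.30) and miR-26b to miR-30c (0.28), and for miR-30a it was miR-8859a (0.32). The 6 libraries differ in depth and in sequencing quality group, and these values are a description.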
